A study of Mus musculus with 12 samples.

Results

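Adding ZK191784 to 25-hydroxyvitamin D (25(OH)D) changed the level of 508 of 14394 tested genes in mineralizing MC3T3-E1 cells: Ibsp and other genes of bone matrix rose, and Spp1, C3 and Igfbp5 fell. The comparison rests on 6 of the 12 libraries of the study, 3 from cells given 25(OH)D with ZK191784 and 3 from cells given 25(OH)D alone, chosen by their labels. MC3T3-E1 is a wild-type mouse line of calvarial pre-osteoblasts, the precursors of bone-forming cells. All cells, in every group, had been differentiated for 28 days in an osteogenic medium that contained ascorbic acid (50 µg/ml), the glucocorticoid dexamethasone (0.1 µM) and 10 mM of the phosphate source beta-glycerophosphate (BGP). From day 27 one group received 100 µM 25(OH)D for 24 h, and another received 100 µM 25(OH)D together with 100 µM ZK191784. These doses are as labelled, and their unit could not be checked here. The other 6 libraries, 3 of untreated control cells and 3 of cells given 25(OH)D with a further 4 mM BGP, served to estimate the spread between libraries and are quoted as levels. No group received ZK191784 alone, so what it did by itself and what it did to the response to 25(OH)D cannot be told apart. Since no label says that replicates were separate cultures, p-values here measure the spread between these libraries, which may be technical.

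25(OH)D is the circulating precursor of the vitamin D hormone. The enzyme encoded by Cyp27b1 turns it into the active hormone, and both can bind the vitamin D receptor, a nuclear receptor that pairs with a retinoid X receptor on DNA. Bone-forming cells carry the receptor, and its classical targets there include the osteopontin gene Spp1 and the 24-hydroxylase gene Cyp24a1. ZK191784 is a synthetic vitamin D analog that binds the same receptor and is known for acting differently in different tissues.

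The 6 libraries, made by a 3' mRNA-seq method, held between 3587039 and 5072719 counts. The deposited counts cover 56691 genes, and 14394 of them had enough counts to be tested. The cells carried the defining genes of the bone-forming lineage in both groups, with Runx2 at 83.2 ± 12.1 CPM (counts scaled to library size, mean ± SD, n = 3) with 25(OH)D and 159 ± 19.4 CPM with ZK191784, and Col1a1 at 5990.1 ± 1387 and 16213 ± 2683 CPM. Within a group the libraries differed in how many counts fell on ribosomal protein genes relative to ribosomal pseudogenes plus Gm-numbered predicted genes. On the log2 scale this ratio ran from −1.74 to −0.44 among the 25(OH)D libraries and from −1.57 to −0.78 among the ZK191784 libraries, so the groups overlapped in it. With this ratio as a covariate edgeR called 1638 genes, which included all 508 called without it. In bulk RNA, fewer cells of a type and less RNA per cell cannot be told apart.

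At an adjusted p under 0.05 (edgeR's quasi-likelihood test with Benjamini-Hochberg adjustment), 508 of the 14394 genes differed between the groups, which is 3.53%. Of these 205 (1.42% of genes tested) were higher and 303 (2.11%) were lower with ZK191784. A change of at least 2-fold was seen in 146 genes that rose and 206 that fell. Among the higher genes 21 had a log2 fold change of 3 or more, and among the lower genes 27 fell by 3 or more. In every one of the 508 genes the 3 libraries of one group lay entirely above those of the other, as they did for 17.6% of all genes tested. The median log2 difference over all genes tested was 0.02. Calls were more frequent among abundant genes, reaching 10.2% of the 1274 genes with an average log2 CPM of 7 or more and 1.43% of the 4531 genes between 1 and 3, where the median standard error was 0.54 against 0.18. Changes in rare genes were thus less often detectable at this depth. The number called ranged from 269 (without ZK191784 library 2) to 428 (without 25(OH)D library 3) when 1 library was left out. It was 328 without 25(OH)D library 1, 283 without 25(OH)D library 2, 302 without ZK191784 library 1 and 319 without ZK191784 library 3. The plot of all genes tested shows Ibsp and Spp1 as abundant genes far from 0 in opposite directions.

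**Figure D1:**
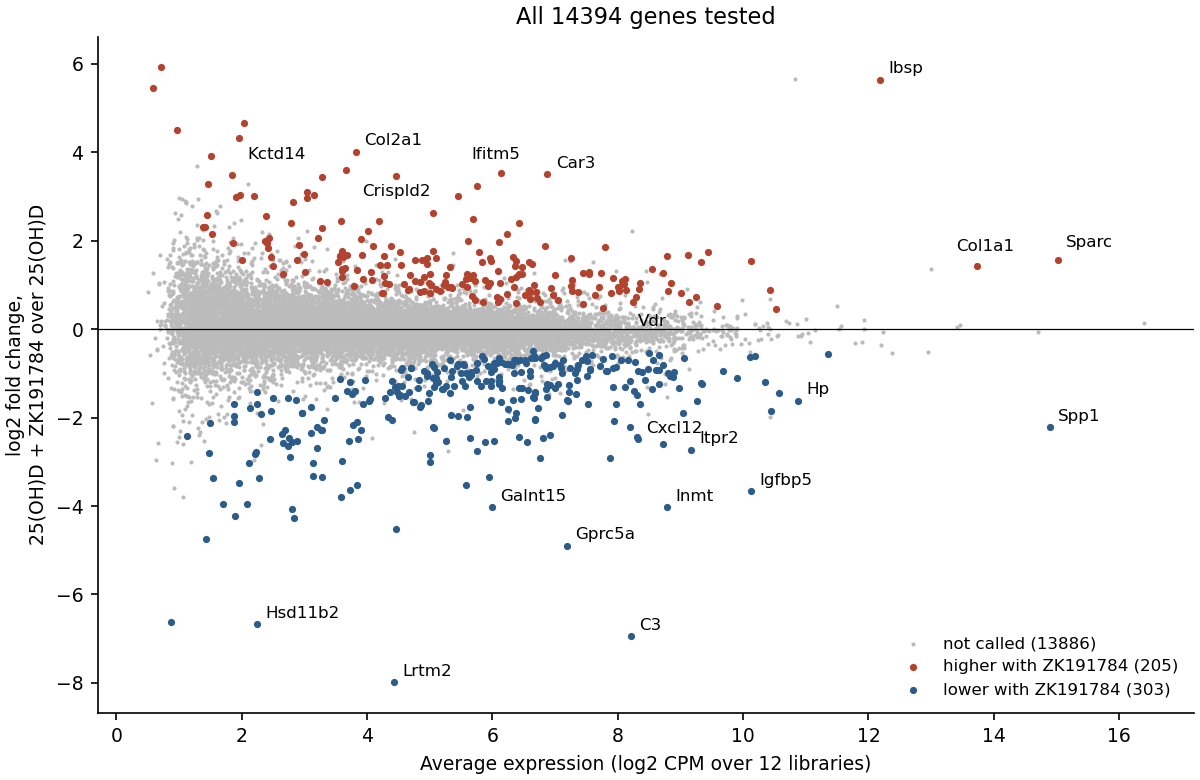
Each point is 1 of 14394 genes tested, with its average log2 CPM over 12 libraries on the x axis and the log2 fold change of 25(OH)D with ZK191784 over 25(OH)D alone on the y axis. The 205 genes called higher (red) and 303 called lower (blue) lie at all expression levels, with Ibsp at the top right and C3 and Lrtm2 at the bottom.

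The 2 bone matrix phosphoprotein genes Spp1 and Ibsp moved in opposite directions. Spp1 encodes osteopontin, a secreted matrix protein that binds mineral and cells. It stood at 49005, 47559 and 58088 CPM in 25(OH)D libraries 1 to 3 and at 11501, 10539.5 and 11205 CPM in ZK191784 libraries 1 to 3. All ZK191784 libraries lay far below all 25(OH)D libraries and above the control level of 3395 ± 401 CPM. On the log2 scale, which all later changes use, Spp1 fell by 2.22 (SE 0.14, adjusted p = 4.00e-06), or 4.65-fold, and values after ± on that scale are standard errors. Ibsp, the bone sialoprotein gene, is typical of osteoblasts that lay down mineral. It was at 117, 109 and 52.0 CPM in the 25(OH)D libraries and at 5764, 4694 and 3504 CPM in the ZK191784 libraries. The lowest ZK191784 library was above the highest 25(OH)D library by a wide margin, and the control level was 13676 ± 5662 CPM. Ibsp rose 50.2-fold (log2 5.65 ± 0.40, adjusted p = 9.35e-06).

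C3, the central component of complement, stood at 593, 851 and 806 CPM with 25(OH)D and 2.66, 7.47 and 8.26 CPM with ZK191784. The ZK191784 libraries lay above the control level of 0.971 ± 0.650 CPM, and C3 fell by 6.94 (SE 0.41, adjusted p = 2.64e-06). Itpr2 encodes a calcium release channel of the endoplasmic reticulum and had the smallest p of all genes. Its values were 1057, 1106 and 1014 CPM with 25(OH)D and 155, 165 and 160.0 CPM with ZK191784. Both groups were tight, and the gene fell by 2.73 (SE 0.11, adjusted p = 1.60e-07). Gprc5a, an orphan receptor gene inducible by retinoic acid, was at 285, 315 and 336 CPM against 12.1, 10.4 and 8.91 CPM and fell by 4.90 (SE 0.25, adjusted p = 9.28e-07). Among the rises the smallest p belonged to Car3, the gene of carbonic anhydrase III, at 21.4, 16.6 and 17.4 CPM against 214, 234 and 186 CPM. It rose by 3.51 ± 0.19 (adjusted p = 9.49e-07), and its level with ZK191784 was near the control level of 218 ± 38.7 CPM. Ifitm5, a membrane protein gene restricted to bone, was at 6.69, 8.92 and 5.02 CPM against 78.4, 85.8 and 75.4 CPM and rose by 3.53 ± 0.24 (adjusted p = 5.38e-06). The plot of expression by library shows these genes in all 4 groups, with the libraries given a further 4 mM BGP beside those given 25(OH)D alone.

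**Figure D2:**
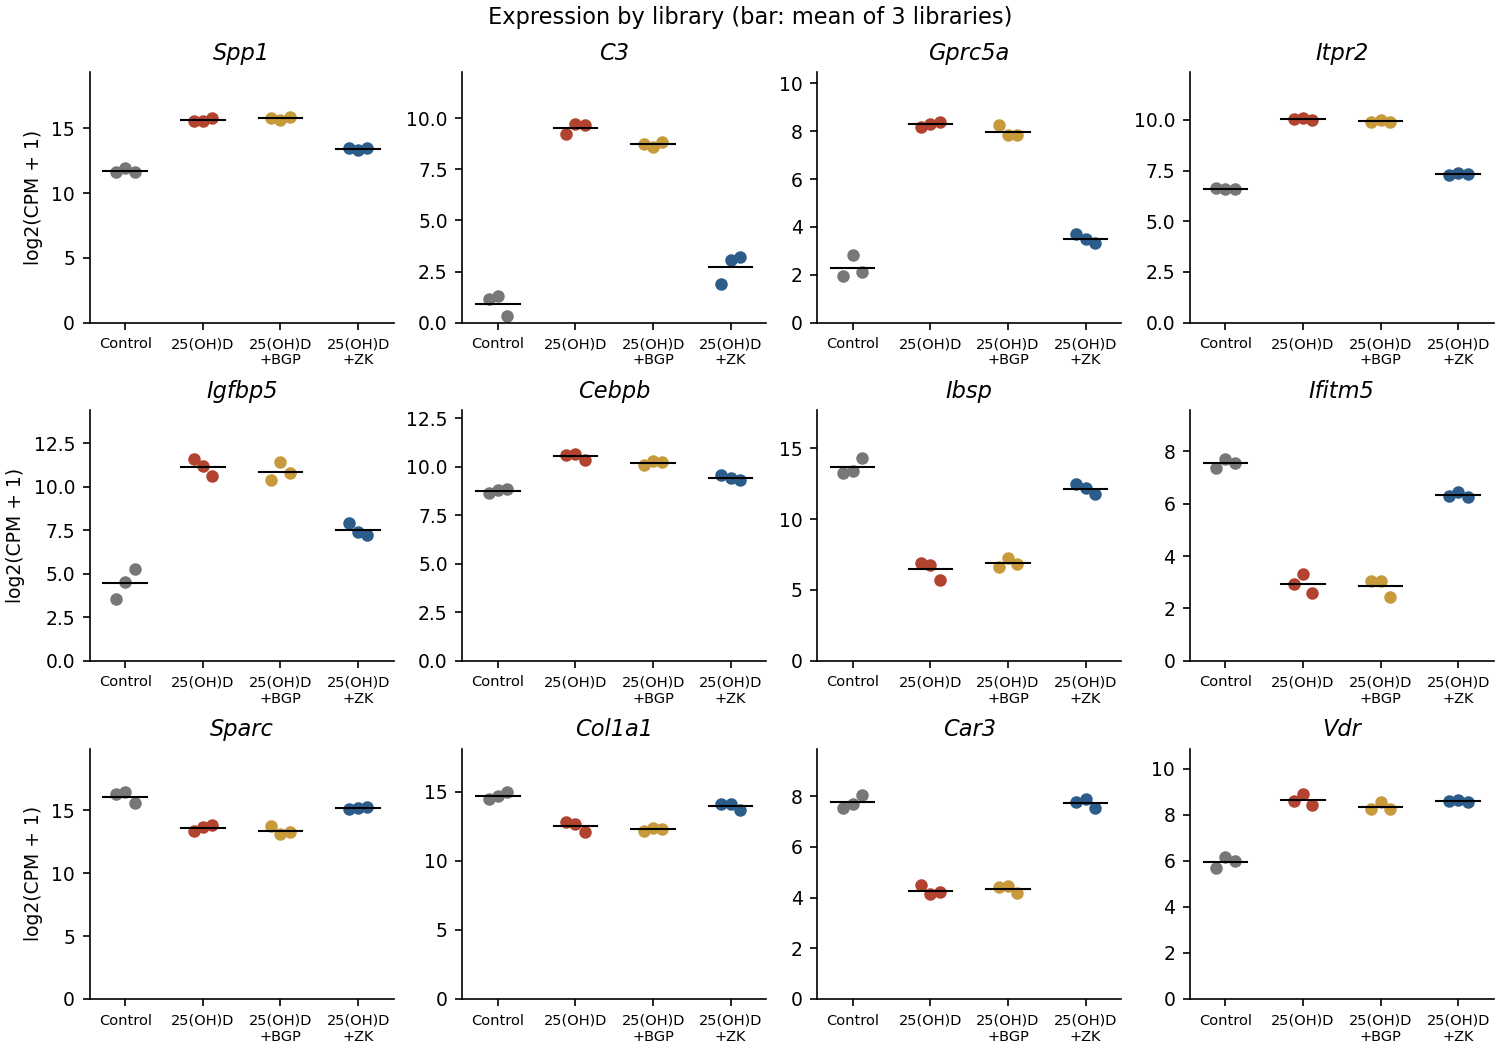
Points are libraries and bars are group means of log2(CPM + 1) for 12 genes in control cells and in cells given 25(OH)D, 25(OH)D with BGP or 25(OH)D with ZK191784. The ZK191784 libraries of Spp1, C3, Gprc5a, Itpr2, Igfbp5 and Cebpb lie below both other 25(OH)D groups and those of Ibsp, Ifitm5, Sparc, Col1a1 and Car3 above them, while those of Vdr overlap the libraries of 25(OH)D alone.

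The promoters of Spp1, C3 and Ibsp are shown because Spp1 and C3 fell and Ibsp rose in the same cells, and because each held a match to a motif. Each sequence holds the 250 bases before the annotated start of the gene, from RefSeq (GRCm38.p6), 5′ to 3′ on the gene's own strand. Spp1 had 2 entries, of which the first by position is shown. Capitals mark matches on either strand to 5 motifs: AGGTCA and GGTTCA, hexamers that nuclear receptors bind; TTGCNNAA for C/EBP factors; AACCACA for RUNX factors; and TATAAA, the TATA box.
Spp1 (chr5:104434861-104435110, plus strand): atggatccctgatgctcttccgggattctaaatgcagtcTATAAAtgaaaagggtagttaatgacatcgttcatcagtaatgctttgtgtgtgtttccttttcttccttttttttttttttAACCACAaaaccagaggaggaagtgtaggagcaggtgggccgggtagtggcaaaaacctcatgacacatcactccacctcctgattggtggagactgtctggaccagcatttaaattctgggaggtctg
C3 (chr17:57228137-57228386, minus strand): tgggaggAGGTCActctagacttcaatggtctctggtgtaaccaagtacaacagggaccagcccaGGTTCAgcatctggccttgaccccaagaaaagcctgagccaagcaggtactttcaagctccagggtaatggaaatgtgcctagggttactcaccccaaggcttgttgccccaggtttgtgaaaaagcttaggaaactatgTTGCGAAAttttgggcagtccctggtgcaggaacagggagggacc
Ibsp (chr5:104299037-104299286, plus strand): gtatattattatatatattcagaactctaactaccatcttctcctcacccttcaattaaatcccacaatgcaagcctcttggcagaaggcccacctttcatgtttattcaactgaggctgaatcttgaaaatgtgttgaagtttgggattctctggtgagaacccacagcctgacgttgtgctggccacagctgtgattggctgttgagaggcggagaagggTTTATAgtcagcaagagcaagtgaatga
In the Spp1 window the RUNX motif begins 129 bases and a TATA motif 211 bases before the start. The C3 window holds AGGTCA at 243, GGTTCA at 185 and the C/EBP motif at 45 bases before the start. The capitals in the Ibsp window are a TATA motif on the opposite strand, at 28 bases. Itpr2, Ifitm5 and Crispld2, the other genes among the 3 smallest p in each direction with a window, held none of the 5 motifs. Genes on a chromosome that was set aside were left out of this choice.

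A window was found for 9522 of the genes tested and for 358 of the 508 called genes. A gene counted as a match when any of its windows held the motif, and all shares are of genes with a window. The C/EBP motif TTGCNNAA occurred in 33 of 209 genes called lower (15.8%), in 14 of 149 genes called higher (9.40%) and in 8.97% of all genes tested. AGGTCA occurred in 14.4% of the lower, 10.1% of the higher and 12.5% of all genes, and GGTTCA in 7.18%, 7.38% and 9.0%. AACCACA occurred in 3.83%, 6.04% and 3.94%, and TATAAA in 12.4%, 17.4% and 8.31%. The DR3 element, in which such hexamers repeat with a spacing of 3 bases, was in 0 of the 358 called genes and in 2 of the 9522. A match describes letters only, and no match says only that these letters are not in this window.

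The 15 largest rises, taken among called genes with separate groups and an average of 1 or more in log2 CPM, began with Ibsp. Kctd14 had counts of 1, 1 and 0 in the 25(OH)D libraries and 29, 13 and 13 in the ZK191784 libraries, a ratio of 23.5 (95% counting interval 6.22 to 199). Slc13a4, a sulfate transporter gene, had 0, 1 and 1 against 17, 15 and 9 counts, a ratio of 17.6 (95% counting interval 4.56 to 149.8). Both were nearly silent with 25(OH)D alone and passed the test (adjusted p = 0.00978 and 0.00628). Col2a1, the cartilage collagen gene, was at 1.87, 0.964 and 0.792 against 26.8, 17.6 and 15.2 CPM and rose by 4.02 ± 0.55. Prss35, a serine protease gene, was at 1.07, 1.21 and 0.792 against 18.0, 11.6 and 8.48 CPM and rose by 3.59 ± 0.62. Has2, a hyaluronan synthase gene, was at 0.535, 0.241 and 1.32 against 6.96, 10.4 and 6.09 CPM and rose by 3.44 ± 0.45. In all of these the groups were separate, as the choice required.

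Omd, which encodes the bone proteoglycan osteomodulin, varied widely, at 14.98, 8.20 and 4.49 CPM with 25(OH)D and 140.2, 65.8 and 53.7 CPM with ZK191784. It rose by 3.23 ± 0.66, a call lost without 25(OH)D library 2 or 3 or ZK191784 library 1 (adjusted p = 0.0682 to 0.0905). Apln, the gene of the peptide apelin, was at 0.535, 0.964 and 0.264 against 5.53, 5.79 and 4.78 CPM and rose by 3.11 ± 0.55. Samd5 was at 2.14, 1.21 and 0.792 against 15.6, 9.88 and 9.13 CPM and rose by 3.04 ± 0.42. Stox2, Amhr2 (the receptor of anti-Müllerian hormone) and Olfr1281 (an olfactory receptor gene) were counted 3, 3 and 6 times over the 25(OH)D group and 43, 37 and 62 times over the ZK191784 group. The ratio of Stox2 was 12.3 (95% counting interval 3.93 to 61.8) and that of Amhr2 was 10.6 (95% counting interval 3.34 to 53.5). These 3 calls were the weakest of the 15, with adjusted p = 0.0434, 0.0455 and 0.0458. Stox2 was lost without 25(OH)D library 1, 2 or 3 or ZK191784 library 1 or 2 (adjusted p = 0.0995 to 0.168), Amhr2 without 25(OH)D library 1, 2 or 3 or ZK191784 library 1, 2 or 3 (adjusted p = 0.0692 to 0.190) and Olfr1281 without 25(OH)D library 1 or 2 or ZK191784 library 1, 2 or 3 (adjusted p = 0.0536 to 0.187).

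Among called genes chosen in the same way, the largest fall was that of Lrtm2, a leucine-rich repeat membrane protein gene. Its counts were 207, 218 and 95 with 25(OH)D and 1, 0 and 1 with ZK191784, so that 25(OH)D alone exceeded the combination by a ratio of 304 (95% counting interval 83.6 to 2514). Hsd11b2, whose product inactivates glucocorticoids, went from 46, 54 and 22 to 1, 0 and 0 counts, a ratio of 142 (95% counting interval 25.1 to 5673). The counts of Hgd, the homogentisate dioxygenase gene, were 23, 26 and 6 against 0, 0 and 2, a ratio of 32.1 (95% counting interval 8.48 to 272). Lrtm2, Hsd11b2 and Hgd were thus close to absent with ZK191784, as they were in control with 4, 0 and 2 counts (adjusted p = 2.66e-05, 0.00161 and 0.0160). The Hgd call was lost without 25(OH)D library 1 or 2 or ZK191784 library 1 or 2 (adjusted p = 0.0549 to 0.0881).

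Inmt, the gene of an indolethylamine N-methyltransferase, was at 1006, 1013 and 794 CPM with 25(OH)D and 61.4, 70.6 and 41.5 CPM with ZK191784. It fell by 4.02 (SE 0.25), yet its level with ZK191784 was above the 0 counts in control. Galnt15, which encodes a glycosyltransferase that starts O-linked sugar chains, was at 149.8, 147 and 90.6 against 10.6, 6.75 and 6.31 CPM and fell by 4.02 (SE 0.33). Krt17, a keratin gene, was at 9.90, 14.5 and 20.1 against 0.819, 1.45 and 0 CPM and fell by 4.27 (SE 0.59). Adam11 fell by 4.07 (SE 0.51), from 14.0 ± 4.23 to 0.816 ± 0.181 CPM. Serpina12, the gene of the serpin vaspin, was counted 29, 33 and 35 times with 25(OH)D and 6, 1 and 0 times with ZK191784. Vwa1, a matrix protein gene, fell by 3.79 (SE 0.45) from 24.8 ± 3.29 to 1.78 ± 0.696 CPM, and the adaptor gene Afap1l2 by 3.63 (SE 0.52) from 25.1 ± 15.04 to 2.01 ± 0.677 CPM. In each of these genes every ZK191784 library was below every 25(OH)D library, as the choice required.

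Of the 10 called genes with the largest difference in mean CPM, rather than in fold, 3 rose and 7 fell. Genes that did not pass were left out, though some differed by more CPM than some of these. Among them were Col1a2 (3856 CPM with 25(OH)D against 9884 CPM with ZK191784) and Actb (10106 against 7034 CPM). Sparc, which encodes the matrix protein osteonectin, had 10554, 12859.6 and 14244 CPM with 25(OH)D and 35616, 37242 and 39359 CPM with ZK191784. It rose 2.98-fold (log2 1.58 ± 0.23, adjusted p = 0.00166), to a level still under the 71819 ± 20751 CPM of control. Col1a1, the main chain of bone collagen, rose 2.71-fold, from 7046, 6505 and 4419 to 17955, 17559.9 and 13122 CPM. Ibsp was the third that rose. Besides Spp1, the abundant genes that fell included Igfbp5, which encodes an insulin-like growth factor binding protein. It was at 3052, 2371 and 1573 CPM with 25(OH)D and 238, 166 and 148 CPM with ZK191784 and fell 12.7-fold. Hp, the haptoglobin gene, fell from 2534, 3253 and 3496 to 1057, 982 and 986 CPM. Samhd1, a nucleotide hydrolase gene, fell from 2859, 2632 and 2013 to 765, 689 and 632 CPM. As in every called gene, the 25(OH)D and ZK191784 libraries of these 10 were separate.

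Igfbp4 fell by 1.45 (SE 0.32), the actin-binding protein gene Cald1 by 0.56 (SE 0.13) and Pdlim2 by 1.19 (SE 0.22). The Igfbp4 call was lost without 25(OH)D library 1 or 2 or ZK191784 library 1, 2 or 3 (adjusted p = 0.0510 to 0.119), the Cald1 call without 25(OH)D library 1, 2 or 3 or ZK191784 library 1, 2 or 3 (adjusted p = 0.0513 to 0.202) and the Pdlim2 call without ZK191784 library 2 (adjusted p = 0.0511). Spp1 alone made up 4.46 to 6.13% of all counts in the 25(OH)D libraries and 1.05 to 1.18% in the ZK191784 libraries. As a description of how much RNA the called genes hold, those called lower took 11.4 to 12.8% of the counts with 25(OH)D and 3.91 to 4.09% with ZK191784. Those called higher took 2.97 to 3.32% and 8.61 to 8.80%.

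The vitamin D receptor gene itself did not pass the test. Vdr was at 381, 476 and 342 CPM with 25(OH)D and 381, 392 and 373 CPM with ZK191784, in overlapping groups, both well above the 61.1 ± 9.91 CPM of control. Its log2 difference was −0.06 ± 0.16, with a 95% interval of −0.42 to 0.29 (adjusted p = 0.972). The partner receptor gene Rxra was at 92.4 ± 10.2 against 91.9 ± 12.1 CPM (difference −0.01 ± 0.15, interval −0.33 to 0.32). Cyp24a1, which inactivates vitamin D metabolites, was counted 26, 12 and 2 times with 25(OH)D and 0, 2 and 1 times with ZK191784. The ratio of ZK191784 to 25(OH)D alone was 0.0642 (95% counting interval 0.0127 to 0.202), the lowest 25(OH)D library and the highest ZK191784 library both had 2 counts, and the gene did not pass over all genes (adjusted p = 0.112). It passed without 25(OH)D library 3 (adjusted p = 0.0379). The activating enzyme gene Cyp27b1 had 1, 4 and 1 against 2, 0 and 2 counts with an exact permutation p of 0.6. The 25-hydroxylase genes Cyp2r1, with 3, 3 and 5 against 3, 7 and 7 counts, and Cyp27a1, with a log2 difference of −0.23 ± 0.52, did not differ detectably at this depth. With 3 libraries against 3, the exact test cannot go below p = 0.1.

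Counts in this and all later lists stand against 1.42% of all genes tested called higher and 2.11% called lower. Among genes with an average log2 CPM of 7 or more 10.2% were called either way, so lists of abundant genes hold more calls. Of the 15 tested genes of vitamin D metabolism and receptors, 2 fell and 0 rose, with a median log2 difference of −0.23. The 2 were Fdxr and Por, which encode reductases in the electron supply of cytochrome P450 enzymes. Fdxr was at 131, 139.6 and 105 CPM against 67.4, 84.1 and 77.0 CPM and fell by 0.72 (SE 0.16, adjusted p = 0.0217), and Por was at 119.8, 117 and 115 CPM against 73.3, 72.1 and 71.1 CPM and fell by 0.70 (SE 0.14, adjusted p = 0.0152). The call of Fdxr was lost without 25(OH)D library 1 or 2 or ZK191784 library 1, 2 or 3 (adjusted p = 0.0593 to 0.133) and that of Por without 25(OH)D library 1 or 2 or ZK191784 library 1, 2 or 3 (adjusted p = 0.0573 to 0.0807). Neither was called without 25(OH)D library 1 or 2 or any 1 ZK191784 library, which left 0 calls in the list.

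Among 22 tested genes of the vitamin D response in various tissues, 4 rose and 3 fell, around a median of −0.02. Besides Spp1, the genes that fell were Cebpb, a transcription factor of the C/EBP family, and Thbd, the gene of the anticoagulant receptor thrombomodulin. Cebpb was at 1565, 1619.5 and 1297 CPM with 25(OH)D and 764, 684 and 639.7 CPM with ZK191784 and fell by 1.10 (SE 0.13, adjusted p = 0.000523). Thbd was at 283, 185 and 92.2 CPM against 45.2, 26.3 and 23.7 CPM and fell by 2.55 (SE 0.55), a call lost without 25(OH)D library 1 or 2 or ZK191784 library 2 or 3 (adjusted p = 0.0655 to 0.121). The 4 that rose were the transcription factor gene Klf4 (0.95 ± 0.17), the osteocalcin genes Bglap and Bglap2, and Tnfrsf11b, which encodes the osteoclast inhibitor osteoprotegerin (1.87 ± 0.46). Tnfrsf11b stood at 7.22, 8.20 and 2.38 CPM with 25(OH)D and 27.2, 21.5 and 17.0 CPM with ZK191784, and its call was lost without 25(OH)D library 1, 2 or 3 or ZK191784 library 1, 2 or 3 (adjusted p = 0.0711 to 0.153). The number that rose was 1 without 25(OH)D library 1 or 3 or ZK191784 library 1 or 2, and 2 without 25(OH)D library 2 or ZK191784 library 3. DESeq2 called 5 of the list lower and the covariate fit 6. Enpp1, whose product makes the mineralization inhibitor pyrophosphate, was at 24.1, 15.2 and 16.6 CPM against 8.39, 10.6 and 10.00 CPM, a log2 difference of −0.94 ± 0.26 in separate groups that did not pass (adjusted p = 0.0815).

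Genes of osteoblast differentiation stood mostly higher with ZK191784. Of 24 tested, 10 rose and 1 fell, and the median log2 difference was 1.34 where that of all genes was 0.02. Beyond Ibsp, Ifitm5, Sparc, Col1a1 and Omd, the transcription factor gene Dlx5 was at 33.7, 32.3 and 26.4 CPM with 25(OH)D and 114, 89.9 and 79.1 CPM with ZK191784 and rose by 1.62 ± 0.23 (adjusted p = 0.00133). Its ZK191784 libraries were all near the control level of 96.5 ± 18.8 CPM. Runx2, which commits cells to the osteoblast lineage, was at 93.1, 86.8 and 69.7 against 181, 151 and 145 CPM and rose by 0.93 ± 0.16 (adjusted p = 0.00451). Smpd3, a sphingomyelinase gene needed for bone mineral, was at 6.95, 7.47 and 7.40 against 27.2, 27.5 and 14.8 CPM and rose by 1.67 ± 0.34, a call lost without 25(OH)D library 1 or 2 or ZK191784 library 1 or 2 (adjusted p = 0.0643 to 0.0784).

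The osteocalcin genes Bglap and Bglap2 are near-identical copies, and reads may be split between them. Bglap was at 396, 345 and 191 CPM with 25(OH)D and 1157, 1228 and 727 CPM with ZK191784, separate groups with a wide spread, and rose by 1.74 ± 0.43. Bglap2 rose by 1.65 ± 0.37. The call of Bglap was lost without 25(OH)D library 1, 2 or 3 or ZK191784 library 1, 2 or 3 (adjusted p = 0.0538 to 0.169) and that of Bglap2 without 25(OH)D library 1, 2 or 3 or ZK191784 library 1 or 2 (adjusted p = 0.0533 to 0.124). The 1 gene of the list that fell was Spp1. Alpl, the gene of the tissue-nonspecific alkaline phosphatase, was lower, at 49.7, 48.7 and 46.0 against 24.2, 32.8 and 27.0 CPM, but its log2 difference of −0.78 ± 0.21 did not pass (adjusted p = 0.0681). Sp7, the osterix gene, spread so widely within groups (35.5 ± 26.2 and 54.0 ± 30.8 CPM) that its difference of 0.60 ± 0.65 had an interval of −0.80 to 2.01. Its libraries, at 63.6, 31.1 and 11.9 against 87.2, 48.2 and 26.5 CPM, ran in the order of the ribosomal protein ratio. With that ratio as a covariate in the edgeR fit Sp7 rose by 0.81 (adjusted p = 0.00076). The number of list genes that rose was 6 without 25(OH)D library 2 or without ZK191784 library 1, and 2 fell without 25(OH)D library 3. With the ribosomal protein ratio as a covariate 17 were called higher and 4 lower, and DESeq2 called 3 lower.

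**Figure D3:**
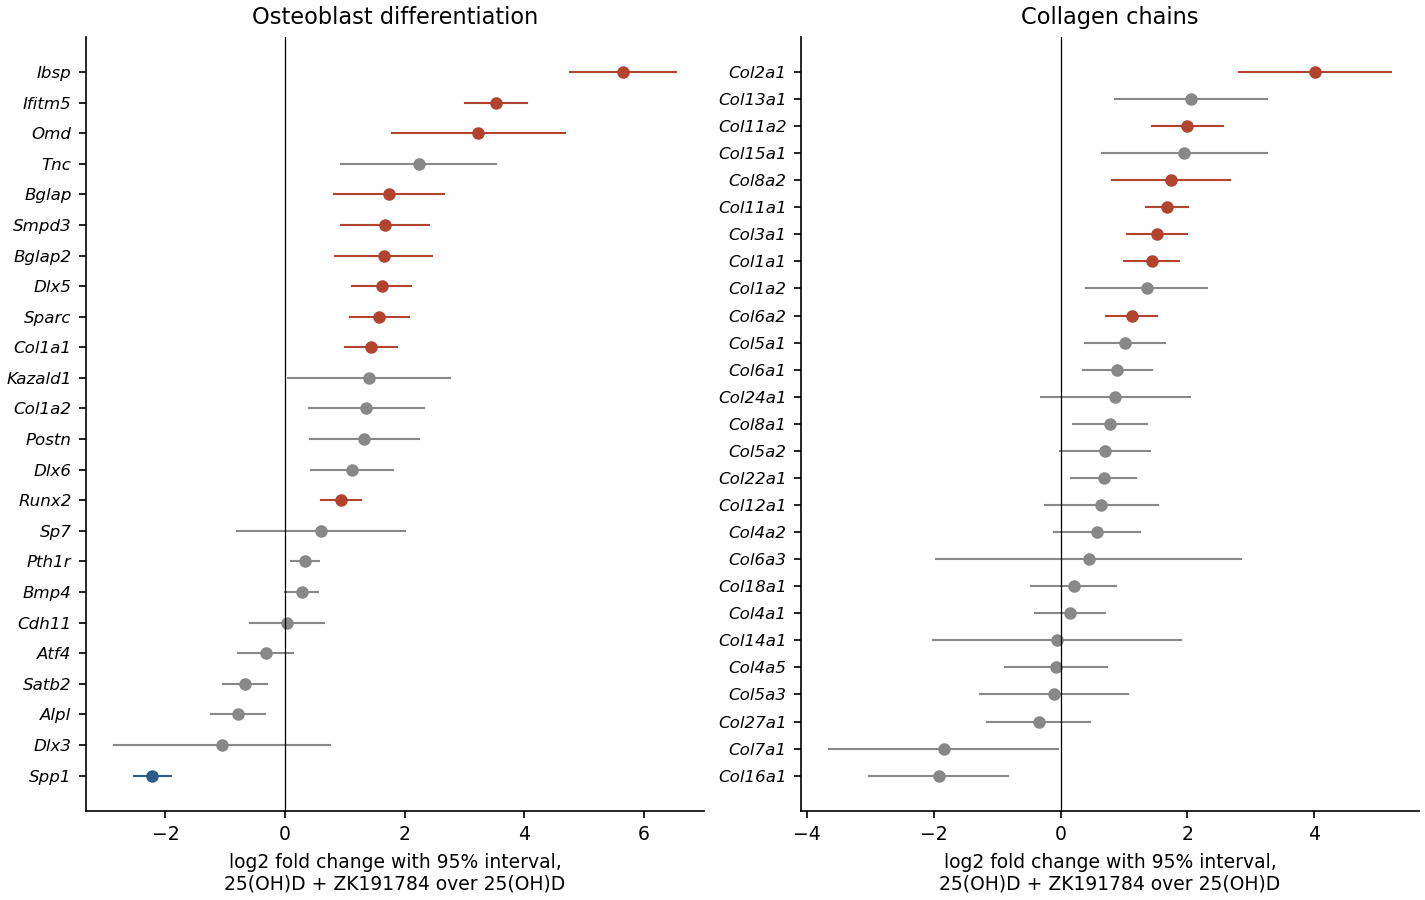
Points are log2 fold changes of 25(OH)D with ZK191784 over 25(OH)D alone and lines their 95% intervals, for 24 tested genes of osteoblast differentiation (left) and 27 collagen chain genes (right). Red genes were called higher, blue lower and grey ones did not pass, and Spp1 is the only blue gene.

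Of 20 tested osteocyte markers 2 rose and 3 fell, with a median of 0.44. In all 15 of the 20 had a positive difference, and at an unadjusted p under 0.05 9 were higher and 3 lower. Over all genes tested 1643 of 14394 had an unadjusted p under 0.05 in either direction. The number called higher was 6 by DESeq2, 5 without the low-count filter and 9 with the ribosomal protein ratio as a covariate. Cd44, a hyaluronan receptor gene, rose by 0.84 ± 0.18, as did Tnfrsf11b. Dstn, whose product destrin cuts actin filaments, was at 769.7, 1179 and 1145 CPM against 417, 436 and 485 CPM and fell by 1.21 (SE 0.18, adjusted p = 0.00193). Fam20c, the kinase of secreted phosphoproteins, was at 160.2, 180.1 and 222 against 103, 102 and 103 CPM and fell by 0.87 (SE 0.19), and Fbln7 fell by 1.59 (SE 0.34). Of these only Dstn passed without any 1 of the 6 libraries. Cd44 was lost without 25(OH)D library 1, 2 or 3 or ZK191784 library 1 or 2 (adjusted p = 0.0519 to 0.0991), Fam20c without 25(OH)D library 2 or 3 or ZK191784 library 1, 2 or 3 (adjusted p = 0.0727 to 0.0969) and Fbln7 without 25(OH)D library 2 or 3 or ZK191784 library 1 or 2 (adjusted p = 0.0579 to 0.118). The number that rose was 0 without 25(OH)D library 1 or 3 or ZK191784 library 1 or 2 and 1 without either of the others, and 1 fell without 25(OH)D library 2 or 3 or ZK191784 library 1 or 2.

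The late osteocyte genes were rare in these libraries. Mepe, a matrix phosphoglycoprotein gene, had 0, 0 and 2 counts with 25(OH)D and 13, 13 and 9 with ZK191784, a ratio of 14.99 (95% counting interval 3.85 to 129) in separate groups that did not pass over all genes (adjusted p = 0.0767). Phex, in which mutations cause inherited phosphate wasting, was at 1.60, 4.58 and 1.06 CPM against 10.8, 9.16 and 6.96 CPM, a difference of 1.87 ± 0.48 (adjusted p = 0.0567). It passed without 25(OH)D library 2 (adjusted p = 0.0134). Dmp1 differed by 0.26 ± 0.49, with an interval of −0.81 to 1.32. Fgf23, the phosphate-regulating hormone gene named in the study's title, was counted 1, 3 and 3 times against 0, 1 and 1 times and was too rare for the test over all genes. Among 19 tested genes of FGF23 regulation and processing 3 fell and 0 rose, with a median of 0.09. Besides Fam20c these were Orai1, a calcium entry channel gene (−1.08 ± 0.22), and the immediate-early gene Egr1 (−0.58 ± 0.15). Orai1 was lost without 25(OH)D library 2 or ZK191784 library 1 or 2 (adjusted p = 0.0532 to 0.0797) and Egr1 without 25(OH)D library 1 or 2 or ZK191784 library 1, 2 or 3 (adjusted p = 0.0753 to 0.224), so that 0 of the list fell without 25(OH)D library 2 or ZK191784 library 1 or 2, 1 fell without ZK191784 library 3, and without 25(OH)D library 2 Phex was 1 that rose. Galnt3, which glycosylates FGF23, differed by 0.55 ± 0.42 (adjusted p = 0.800).

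In mineralization and phosphate transport 5 of 19 tested genes rose and 1 fell, around a median of 0.05. Anxa2, an annexin gene of matrix vesicles, was at 142, 192 and 198 CPM with 25(OH)D and 427, 449.6 and 494 CPM with ZK191784 and rose by 1.36 ± 0.18 (adjusted p = 0.000996). Anxa6, another annexin gene, rose by 0.62 ± 0.15, a call lost without 25(OH)D library 1 or 2 or ZK191784 library 1, 2 or 3 (adjusted p = 0.115 to 0.200). The others that rose were Ibsp, Bglap and Smpd3, and the 1 that fell was Spp1. The number that rose was 2 without 25(OH)D library 1 or 2 or ZK191784 library 1 or 2, and 3 without ZK191784 library 3. DESeq2 called 4 of the list lower and the fit with the ribosomal protein ratio as a covariate 6. Mgp encodes matrix Gla protein, an inhibitor of calcification, and was looked at after its values were seen. It was at 3112, 2059 and 1089 CPM with 25(OH)D and 766, 495 and 325 CPM with ZK191784, separate groups each with a wide spread. Its difference of −1.98 ± 0.54 did not pass (adjusted p = 0.0748). In both groups Mgp was highest in library 1 and lowest in library 3, as was the ribosomal protein ratio. Mgp passed with that ratio as a covariate in the edgeR fit (adjusted p = 6.67e-13), by DESeq2 (0.00507) and in the 2 groups alone (0.0394).

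Of 27 tested collagen chains 7 rose and 0 fell, and the median was 0.78. Col11a1, a chain of the collagen that sets fibril width, was at 161, 181 and 177 CPM with 25(OH)D and 529, 531 and 603 CPM with ZK191784 and rose by 1.68 ± 0.15 (adjusted p = 4.27e-05). Its partner chain Col11a2 rose by 2.00 ± 0.26, Col3a1 by 1.51 ± 0.22 and Col6a2 by 1.12 ± 0.19. Col8a2 was the seventh, and Col1a1 and Col2a1 are described above. In all 7 the level with ZK191784 was below the mean of the control libraries. Col1a2, the partner of Col1a1 in type I collagen, was at 5599, 3747 and 2222 CPM against 13143, 10166 and 6343 CPM, and its difference of 1.36 ± 0.44 did not pass (adjusted p = 0.155, and 1.78e-10 with the covariate). Col16a1 was lower in separate groups, at 968, 695 and 329.9 against 216, 193 and 117 CPM, and did not pass (log2 −1.92 ± 0.50, adjusted p = 0.0637). It was the 1 chain called lower without 25(OH)D library 3 (adjusted p = 0.0407), by DESeq2 (0.00399), in the 2 groups alone (0.0317) and with the ribosomal protein ratio as a covariate (0.000436). The chains called higher numbered 11 by DESeq2, 13 without the low-count filter and 18 with the covariate. Both genes were chosen after their values were seen.

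Among 24 tested genes that crosslink or modify collagen 3 rose and 2 fell, with a median of 0.27. Pcolce and Pcolce2 encode enhancers of the enzyme that trims procollagen. Pcolce was at 164, 180.3 and 161 CPM against 335, 375 and 318 CPM and rose by 1.02 ± 0.13, and Pcolce2 was at 0.802, 2.17 and 0.792 against 7.57, 7.71 and 5.44 CPM and rose by 2.41 ± 0.45, a call lost without 25(OH)D library 1 (adjusted p = 0.0535). Fkbp10, a collagen chaperone gene, rose by 0.69 ± 0.15, a call lost without 25(OH)D library 1, 2 or 3 or ZK191784 library 1, 2 or 3 (adjusted p = 0.0596 to 0.0985), and 1 gene rose without 25(OH)D library 1. Tgm2, which encodes a protein-crosslinking transglutaminase, was at 226, 237 and 172 CPM with 25(OH)D and 35.0, 41.0 and 38.9 CPM with ZK191784 and fell by 2.47 (SE 0.19, adjusted p = 1.71e-05). Plod1, a lysyl hydroxylase gene, fell by 1.17 (SE 0.18).

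Of 28 tested proteoglycan and matricellular genes 6 rose and 2 fell, with a median of 0.65. Thbs2, the thrombospondin 2 gene, was at 198, 179 and 213 CPM with 25(OH)D and 502, 478 and 443 CPM with ZK191784 and rose by 1.27 ± 0.13 (adjusted p = 0.000133). Aspn, the gene of the small proteoglycan asporin, was at 7.76, 6.03 and 5.81 against 50.0, 41.5 and 30.7 CPM and rose by 2.64 ± 0.38. Mfap5, a microfibril gene, rose by 1.48 ± 0.23, the tenascin gene Tnn by 1.78 ± 0.38 and Ccn4 by 1.47 ± 0.33. The 2 that fell were Fbln2, a fibulin gene, from 39.0, 49.9 and 38.6 to 18.4, 12.8 and 13.3 CPM (1.52, SE 0.21), and Prelp, from 609, 610.1 and 375 to 218, 202 and 148 CPM (1.49, SE 0.30). Prelp was lost without 25(OH)D library 1 or 2 or ZK191784 library 2 or 3 (adjusted p = 0.0544 to 0.0760), where 1 fell. The number that rose was 3 without 25(OH)D library 2 or 3 or ZK191784 library 1, but 11 by DESeq2 and 14 with the covariate, where 5 fell. Tnc, the tenascin C gene, and Postn, the periostin gene, were chosen after their values were seen and did not pass (adjusted p = 0.0681 and 0.142). Both passed by DESeq2 (0.00312 and 0.0491), in the 2 groups alone (0.0359 and 0.0446) and with the covariate (7.80e-14 and 8.02e-12). Tnc was at 139, 86.8 and 35.7 CPM against 541, 439 and 248 CPM and Postn at 299, 248 and 131 against 686, 591 and 422 CPM, in separate groups whose libraries ran in the same order as the ribosomal protein ratio.

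Hyaluronan genes moved in both directions. The synthase gene Has2 rose, as did Hapln1, which encodes a protein that links hyaluronan to proteoglycans and was at 6.95, 4.34 and 1.85 against 27.0, 19.3 and 15.4 CPM (2.23 ± 0.44). Cemip, whose product is needed for hyaluronan breakdown, was at 19.8, 22.2 and 22.2 CPM with 25(OH)D and 4.71, 2.17 and 1.09 CPM with ZK191784 and fell by 2.98 (SE 0.41, adjusted p = 0.00119). In all 3 of 13 tested genes rose, the third being Cd44, and 1 fell, with 1 that rose without 25(OH)D library 2 or ZK191784 library 1. The Hapln1 call was lost without 25(OH)D library 2 or ZK191784 library 1 (adjusted p = 0.0518 to 0.0657). Among 29 tested matrix proteases and inhibitors 2 rose and 0 fell, with a median of 0.30. These were Plat, the tissue plasminogen activator gene (1.24 ± 0.21), and Adam12 (1.13 ± 0.24), which was lost without 25(OH)D library 1, 2 or 3 or ZK191784 library 1 or 2 (adjusted p = 0.0643 to 0.113), leaving 1. Mmp13, the collagenase gene of late osteoblasts, differed by 0.41 ± 0.45 (adjusted p = 0.902).

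Secreted immune and plasma protein genes included some of the steepest falls. Of 19 tested complement genes 1 fell, which was C3, and 2 rose. Masp1, a protease gene of the lectin pathway, was at 112, 117 and 112 CPM with 25(OH)D and 293, 281 and 268 CPM with ZK191784 and rose by 1.30 ± 0.13 (adjusted p = 9.07e-05). C1qtnf6 rose by 0.83 ± 0.20, a call lost without 25(OH)D library 1, 2 or 3 or ZK191784 library 1, 2 or 3 (adjusted p = 0.0716 to 0.184), so that 1 rose when any library but 25(OH)D library 1 was left out, and 2 did, with another gene in its place, without that one. Among 8 tested acute-phase protein genes 3 fell and 1 rose, with a median of −1.01. Besides Hp these were Orm2 and Orm3 of the orosomucoid family, whose reads may be split between near-identical copies. Orm3 was at 509, 530.1 and 415 CPM against 69.0, 68.5 and 56.7 CPM and fell by 2.90 (SE 0.25), and Orm2 fell by 2.00 (SE 0.42), a call lost without 25(OH)D library 1 or 2 or ZK191784 library 1, 2 or 3 (adjusted p = 0.0599 to 0.1000). Cp, the ceruloplasmin gene, rose by 0.81 ± 0.18, a call lost without 25(OH)D library 1, 2 or 3 or ZK191784 library 1 or 2 (adjusted p = 0.0712 to 0.116).

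Of 16 tested chemokine and cytokine genes 5 fell and 0 rose. The 5 included the gene of the adipokine chemerin and the genes of 2 receptors that bind it. Ccrl2, which presents chemerin at the cell surface, was at 48.1, 54.5 and 42.5 CPM with 25(OH)D and 4.09, 1.21 and 0.870 CPM with ZK191784 and fell by 4.51 (SE 0.58). Cmklr1, the signalling chemerin receptor gene, had 12, 19 and 23 against 2, 1 and 0 counts, so that 25(OH)D alone was higher by a ratio of 21.0 (95% counting interval 6.82 to 105). Rarres2, which encodes chemerin, was at 10.96, 18.1 and 21.1 against 3.28, 4.82 and 3.91 CPM and fell by 2.06 (SE 0.46), a call lost without 25(OH)D library 2 or 3 or ZK191784 library 1, 2 or 3 (adjusted p = 0.0760 to 0.130). Cxcl12, a chemokine gene of marrow stroma, was at 798, 723 and 489 CPM against 129, 121 and 110.5 CPM and fell by 2.48 (SE 0.29, adjusted p = 0.000381). Il34, whose product drives macrophage and osteoclast precursors through the Csf1 receptor, was at 117, 162 and 174 against 40.5, 35.7 and 36.3 CPM and fell by 2.01 (SE 0.20). In the list of osteoclast regulation, with 9 tested, Cxcl12 and Il34 were thus the 2 that fell and Tnfrsf11b the 1 that rose, a number that was 0 without any 1 of the 6 libraries. Csf1 itself was at 98.6 ± 23.3 against 93.0 ± 10.7 CPM, a difference of −0.08 ± 0.25 with an interval of −0.63 to 0.47.

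In cholesterol synthesis 4 of 24 tested genes fell and 0 rose, with a median of 0.17. Dhcr7, which turns 7-dehydrocholesterol, also the skin's vitamin D precursor, into cholesterol, was at 135, 166 and 142 CPM with 25(OH)D and 32.1, 33.7 and 38.9 CPM with ZK191784. It fell by 2.08 (SE 0.17, adjusted p = 2.54e-05). Insig2, a sterol sensor partner gene, fell by 0.90 (SE 0.13), the squalene synthase gene Fdft1 by 1.21 (SE 0.27) and Pmvk by 0.77 (SE 0.17). Fdft1 was lost without 25(OH)D library 1 or 2 or ZK191784 library 1, 2 or 3 (adjusted p = 0.0517 to 0.124) and Pmvk without 25(OH)D library 2 or 3 or ZK191784 library 1 or 2 (adjusted p = 0.0734 to 0.129), and 2 fell without 25(OH)D library 2 or ZK191784 library 1 or 2. Of 35 tested genes of fatty acid and triglyceride metabolism 3 fell and 0 rose, with a median of 0.03. Dgat1, which makes triglycerides, was at 882, 1024 and 945 CPM against 248, 243 and 272 CPM and fell by 1.90 (SE 0.15). Scd1, the stearoyl-CoA desaturase gene, was at 280.3, 353 and 295 against 99.3, 103 and 85.7 CPM and fell by 1.69 (SE 0.14). Lpl, the lipoprotein lipase gene, was at 21.9, 13.5 and 6.87 against 4.09, 1.21 and 1.30 CPM and fell by 2.64 (SE 0.60), a call lost without 25(OH)D library 1 or 2 or ZK191784 library 2 or 3 (adjusted p = 0.0863 to 0.155), while without 25(OH)D library 1 another gene rose.

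Among 29 tested genes of the oxidative stress response 3 fell and 1 rose, around a median of −0.01. Pgd, an enzyme gene of the pentose phosphate pathway, was at 512, 552 and 419 CPM with 25(OH)D and 106, 105 and 112 CPM with ZK191784 and fell by 2.20 (SE 0.17, adjusted p = 2.01e-05). G6pdx, the gene of the enzyme that starts that pathway, differed by 0.26 ± 0.31 (adjusted p = 0.912). The heme oxygenase gene Hmox1 fell by 1.34 (SE 0.32) and the autophagy receptor gene Sqstm1 by 0.94 (SE 0.21). Gstm2, a glutathione transferase gene with close paralogs, rose by 1.24 ± 0.16. Hmox1 was lost without 25(OH)D library 2 or 3 or ZK191784 library 1, 2 or 3 (adjusted p = 0.0862 to 0.200) and Sqstm1 without 25(OH)D library 1 or 2 or ZK191784 library 1, 2 or 3 (adjusted p = 0.0726 to 0.124), and 1 fell without 25(OH)D library 2 or any 1 ZK191784 library. In the p53 and growth arrest list, with 24 tested and a median of −0.19, 4 fell and 1 rose, and the Gadd45 genes, which encode stress-inducible cell cycle inhibitors, did not move together. Gadd45a was at 682, 495 and 262 CPM with 25(OH)D and 155, 103 and 83.3 CPM with ZK191784 and fell by 2.08 (SE 0.44), Gadd45b fell by 1.30 (SE 0.29), and Gadd45g was at 9.36, 14.0 and 8.98 against 33.0, 34.0 and 32.0 CPM and rose by 1.61 ± 0.20. Gdf15, a stress cytokine gene, fell by 1.43 (SE 0.27) and the sestrin gene Sesn1 by 1.09 (SE 0.23). The calls of the genes that fell were weak. Gadd45a was lost without 25(OH)D library 1 or 2 or ZK191784 library 2 or 3 (adjusted p = 0.0707 to 0.117), Gadd45b without 25(OH)D library 1 or 2 or ZK191784 library 1, 2 or 3 (adjusted p = 0.0692 to 0.117), Gdf15 without ZK191784 library 1 or 2 (adjusted p = 0.0588 to 0.0615) and Sesn1 without 25(OH)D library 1 or 2 or ZK191784 library 2 or 3 (adjusted p = 0.0584 to 0.113). The number that fell was 0 without ZK191784 library 2, 1 without 25(OH)D library 1 or 2 or ZK191784 library 3, and 2 without ZK191784 library 1.

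Of 16 tested insulin-like growth factor genes 4 fell and 0 rose, with a median of −0.37. Besides Igfbp5 and Igfbp4 these were Htra1, a protease gene whose product cleaves such binding proteins, at 461, 611 and 535 CPM against 254, 237 and 234 CPM (1.15, SE 0.17), and Irs2, an insulin receptor substrate gene (1.42, SE 0.29). Irs2 was lost without 25(OH)D library 1 or 2 or ZK191784 library 2 or 3 (adjusted p = 0.0600 to 0.0909), and 2 of the list fell without 25(OH)D library 1 or 2 or ZK191784 library 2 or 3. The ligand gene Igf1 differed by −0.04 ± 0.34. In BMP and TGF-beta signalling 3 of 39 tested genes rose and 1 fell, around a median of 0.01. Bmp8a, a bone morphogenetic protein gene, was at 43.6, 33.3 and 33.8 CPM against 93.4, 88.5 and 93.5 CPM and rose by 1.31 ± 0.14 (adjusted p = 0.000231). Inhba, the gene of the activin A subunit, rose by 1.57 ± 0.32 and the target gene Id2 by 0.61 ± 0.15, and Tsc22d1 fell by 0.93 (SE 0.17). Inhba was lost without 25(OH)D library 2 or 3 or ZK191784 library 1 or 2 (adjusted p = 0.0521 to 0.0842), Id2 without 25(OH)D library 1, 2 or 3 or ZK191784 library 1, 2 or 3 (adjusted p = 0.0818 to 0.168) and Tsc22d1 without 25(OH)D library 2 or ZK191784 library 3 (adjusted p = 0.0522 to 0.0573), and 1 rose without 25(OH)D library 2 or 3 or ZK191784 library 1 or 2. Among 30 tested Wnt ligands, receptors and modulators 1 fell and 0 rose, near the 3.53% called among all genes tested. This was Rspo3, an enhancer of Wnt signals, at 17.7, 15.7 and 10.6 CPM against 5.73, 2.89 and 3.04 CPM (1.89, SE 0.43), lost without 25(OH)D library 1 or 2 or ZK191784 library 2 or 3 (adjusted p = 0.110 to 0.158), while 2 fell without 25(OH)D library 3.

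Hsd11b2 was the 1 of 19 tested glucocorticoid genes that fell, and 0 rose, where 2.11% of all genes tested were called lower. The glucocorticoid targets Fkbp5 (0.28 ± 0.70) and Tsc22d3 (1.24 ± 0.40) did not pass (adjusted p = 0.971 and 0.153). Tsc22d3 was at 349.5, 255 and 179 CPM with 25(OH)D and 828, 622 and 406 CPM with ZK191784, separate groups again in the order of the ribosomal protein ratio. Of 33 tested immediate-early and ERK feedback genes 2 rose and 2 fell, with a median of −0.23. Ier3, an early response gene that protects from cell death, was at 129, 119 and 110.1 CPM with 25(OH)D and 285, 282 and 294 CPM with ZK191784 and rose by 1.27 ± 0.12 (adjusted p = 6.21e-05). Its level with ZK191784 was above the 154 ± 7.37 CPM of control. The other that rose was Klf4. Those that fell were Egr1 and Dusp5, a phosphatase gene of ERK (0.80, SE 0.18), lost without 25(OH)D library 1 or 2 or ZK191784 library 1, 2 or 3 (adjusted p = 0.0537 to 0.166), so that 0 fell without 25(OH)D library 1 or 2 or any 1 ZK191784 library.

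Among 28 tested calcium channel, pump and buffer genes 3 fell and 2 rose, around a median of 0.11. Besides Itpr2 and Orai1, the calcium channel subunit gene Cacna2d1 fell, from 139, 139.6 and 131 to 54.7, 49.7 and 59.1 CPM (1.32, SE 0.15). The plasma membrane calcium pump gene Atp2b4 was at 38.5, 51.1 and 36.4 against 95.4, 95.2 and 88.5 CPM and rose by 1.15 ± 0.17, and the calmodulin gene Calm3 rose by 0.48 ± 0.12, lost without 25(OH)D library 1, 2 or 3 or ZK191784 library 1, 2 or 3 (adjusted p = 0.0546 to 0.192), leaving 1. Of 19 tested annexin and S100 genes 4 rose and 0 fell, with a median of 0.22. S100a4, a calcium-binding protein gene of migrating mesenchymal cells, was at 477, 474 and 418 CPM with 25(OH)D and 1383, 1316 and 1275 CPM with ZK191784 and rose by 1.54 ± 0.16 (adjusted p = 0.000149). S100b rose by 1.08 ± 0.20, a call lost without 25(OH)D library 2 (adjusted p = 0.0595), and 2 of the list rose without 25(OH)D library 2. In the actin cytoskeleton list 1 of 37 rose and 3 fell, where 3.53% of all genes tested and 10.2% of the most abundant ones were called. Tpm1, a tropomyosin gene, was at 273, 269 and 283 against 572, 524 and 613 CPM and rose by 1.05 ± 0.12, while Synpo, an actin-associated protein gene, was at 222, 264 and 248 against 92.3, 95.2 and 88.3 CPM and fell by 1.41 (SE 0.15), as did Dstn and Cald1. The number that fell was 2 when any 1 of the 6 libraries was left out. Cebpb and Klf4 were the 2 called genes of 18 tested Kruppel-like, C/EBP and adipocyte regulators.

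Several groups held few or 0 calls. Of 33 tested cell cycle genes, 28 interferon response genes and 26 genes of glycolysis and hypoxia, edgeR called 0. It called 3.53% of all genes tested, so lists of this size hold few calls at that share and 0 does not set them apart. The medians of these lists were 0.19, 0.24 and 0.08, and at an unadjusted p under 0.05 they held 4, 0 and 2 higher and 0, 0 and 1 lower genes. Over all genes tested 1643 of 14394 had an unadjusted p under 0.05 in either direction, the background for all such counts. DESeq2 called 2 cell cycle genes higher and 0 in the other lists, and the fit with the ribosomal protein ratio as a covariate called 4 cell cycle, 2 interferon and 3 glycolysis genes higher and 1 glycolysis gene lower. Without 25(OH)D library 3, 1 cell cycle gene rose. In the unfolded protein and integrated stress response 1 of 31 rose, Psat1 of serine synthesis (0.95 ± 0.18), lost without 25(OH)D library 2 or ZK191784 library 1 (adjusted p = 0.0547 to 0.0637). In the lists where 0 rose by adjusted p, 0 of the genes of vitamin D metabolism, 3 of FGF23 regulation, 0 of chemokines, 4 of cholesterol synthesis, 3 of fatty acid metabolism, 5 of Wnt signalling, 2 of insulin-like growth factors and 5 of glucocorticoid genes were higher at an unadjusted p under 0.05. In those where 0 fell, 2 collagen chains, 1 matrix protease gene, 1 annexin or S100 gene and 3 stress response genes were lower at that level. The list plot sets these groups beside the lists of osteoblast differentiation, collagen chains and proteoglycans, whose medians were 1.34, 0.78 and 0.65.

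**Figure D4:**
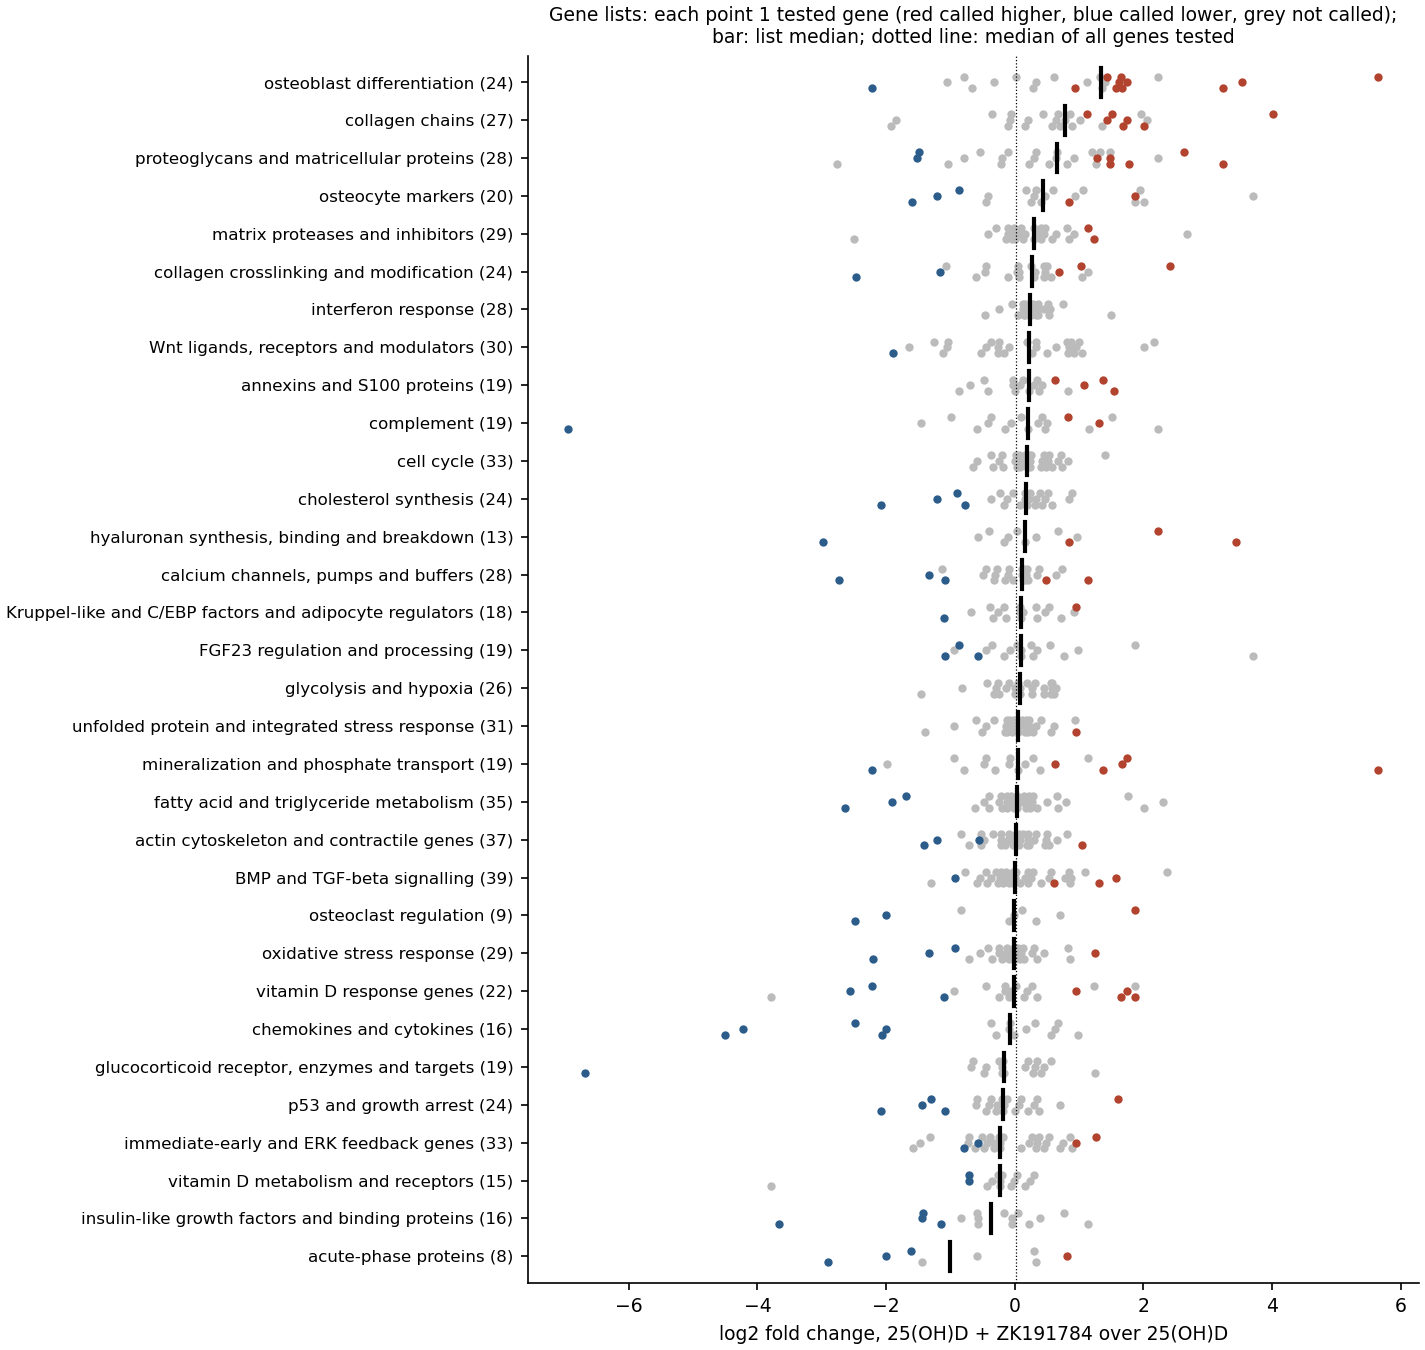
Each row is 1 gene list with its number of tested genes in brackets, each point 1 tested gene, by its log2 fold change of 25(OH)D with ZK191784 over 25(OH)D alone (red called higher, blue called lower, grey not called). The lists of markers of other cell types are not drawn. Bars are list medians, from 1.34 for osteoblast differentiation to −1.01 for acute-phase proteins, and the dotted line is the median of all genes tested.

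Markers of other cell types were present at various levels. Of 10 adipocyte markers 3 were tested, where Car3 rose and Lpl fell, and the sum of all 10 was 25.6 to 49.5 CPM with 25(OH)D and 194 to 242 CPM with ZK191784. With ZK191784 nearly all of the sum was Car3, at 214, 234 and 186 CPM. The sum was 195 to 271 CPM in control. Without 25(OH)D library 1 there were 2 that rose, and 0 fell without 25(OH)D library 1 or 2 or ZK191784 library 2 or 3. Of 12 chondrocyte markers 5 were tested, and Col2a1 and Hapln1 rose (1 without 25(OH)D library 2 or ZK191784 library 1), with sums of 113 to 216 and 148 to 282 CPM. Col2a1 and Hapln1 are also in the collagen and hyaluronan counts above, and the part of cartilage-like cells in them was not tested. The macrophage markers, 11 of 14 tested, summed to 317 to 594 against 363 to 639 CPM with 0 called, and the osteoclast markers, 4 of 10 tested, to 82.1 to 156 against 92.4 to 143 CPM with 0 called and Atp6v0d2 at 0 in these 6 libraries. The 5 tested of 10 endothelial markers held 0 calls, with Cdh5 and Cldn5 at 0, as did the 2 tested of 11 muscle markers, with Ckm and Myog at 0. At an unadjusted p under 0.05, 1 endothelial marker was higher and 0 of the macrophage, osteoclast and muscle markers differed, and DESeq2 called 0 in all 4 lists. The fit with the ribosomal protein ratio as a covariate called 1 endothelial marker higher and 1 lower, and 0 macrophage, osteoclast or muscle markers.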

How the data were processed

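The deposited values are counts per gene symbol and library. Per the submitters' processing notes the authors used the mouse build mm39, STAR 2.7.9a and Subread 2.0.3 (featureCounts), and DESeq2 1.38.2 in a role not stated. The sources used here do not give strand setting, annotation or filters. Antisense, overlapping and near-identical genes therefore cannot be told apart. Repeated symbols (882 entries) were kept apart.

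Genes were kept by filterByExpr (min.count 10, min.total.count 15), which held 99.4% of the counts, and TMM scaling was applied. In edgeR 4.0.16 (R 4.3.3) the 12 libraries entered 1 robust quasi-likelihood fit with 1 coefficient per group. The SE was taken as the size of the log2 fold change over the root of F, and 95% intervals use the test's degrees of freedom. For genes with few counts, the ratio of summed counts has an exact binomial (Clopper-Pearson) 95% interval, which covers counting error only. The exact permutation test, 2-sided, used all splits of 3 against 3.

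Core genes were named whatever their result. Added were the 15 largest called rises and falls (average log2 CPM at least 1, groups separate, no predicted or clone name), the 10 called genes with the largest CPM difference and up to 6 called members of each of 38 lists by smallest p; some named genes are not reported here. Lists are described by counts and medians, with no set test. The comparison, lists, rules and motifs were chosen with earlier results of these data known. The method was tested on simulated data. Alternatives were RLE, DESeq2 1.42.0, no filter, a CPM of 2 in 3 libraries, the 2 groups alone, a replicate block, the ribosomal protein ratio as a covariate and leaving out each of the 6 libraries. Plots used Python 3.11.15 and matplotlib 3.10.9.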

Additional observations from a re-analysis of the deposited data

How the results depend on the processing

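All 508 called genes that could be tested kept their direction under every alternative run, and 0 of the 127 genes named by rule reversed with a call. Of the 117 named genes that were called, 68 stayed called under each alternative that gave them a value, which was all 13 except for Slc13a4 with 12. Against 508 calls (205 higher, 303 lower), DESeq2 made 797 (336 and 461) and held all 508. The ribosomal protein ratio as a covariate gave 1638 (780 and 858), with 244 list genes called where the reported fit had 99. A replicate block gave 334 (133 and 201). No label says that the replicate numbers pair the samples. Libraries with the same number in different groups had deviations correlated from −0.71 to 0.61 over 18 pairs, and those with different numbers from −0.67 to 0.67 over 36. Within this comparison the 3 same-number pairs had 0.55, 0.01 and 0.61, and different-number pairs ran from −0.61 to 0.20. Such overlapping ranges cannot tell whether libraries of 1 number share a culture or batch. Leaving out 1 library gave 269 to 428 calls (109 to 152 higher, 158 to 296 lower) and 56 to 83 list genes, with fewer samples in each fit. Core genes that missed the test passed under some settings. By DESeq2 Cyp24a1, Phex, Enpp1, Mepe and Alpl had adjusted p = 0.0260, 0.00338, 0.0145, 0.0160 and 0.0122, and with the covariate 0.00452, 0.000636, 0.00405, 0.00397 and 0.00121. Sp7 passed with the covariate only (adjusted p = 0.00076). Without the low-count filter, where 36479 genes were tested, 431 of the 508 remained called. Other scalings moved the median of all genes by less than 0.1. Depth limits the rare genes, where the median standard error was 0.54.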

Other observations

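Genes outside the lists, all chosen after their values were seen, also differed between the groups by edgeR's adjusted p. Tmem119, a membrane protein gene that promotes osteoblast differentiation, was at 65.3, 68.9 and 53.6 CPM with 25(OH)D and 204, 201 and 165 CPM with ZK191784 and rose by 1.60 ± 0.17 (adjusted p = 0.000214). Mef2c, a transcription factor gene of osteoblasts and osteocytes, was at 69.3, 83.7 and 79.5 against 181, 192 and 179.8 CPM and rose by 1.25 ± 0.18. Vit, the gene of the matrix protein vitrin, rose by 2.15 ± 0.15, from 22.9 ± 2.59 to 102 ± 6.60 CPM. Crispld2, a secreted protein gene that glucocorticoids can induce, was at 12.03, 13.5 and 12.1 against 108, 96.9 and 98.7 CPM and rose by 3.01 ± 0.26. Its level with ZK191784 lay above the 44.8 ± 8.15 CPM of control as well as above 25(OH)D alone, the former as a level only.

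Ddr2, a collagen receptor gene, was at 647, 708 and 716 CPM against 349.9, 331 and 318 CPM and fell by 1.05 (SE 0.13), and the collagen-binding integrin gene Itga1 was at 430.0, 500.5 and 422 against 162, 129.7 and 129 CPM and fell by 1.68 (SE 0.14). The heparan sulfate proteoglycan genes Sdc1 and Gpc4 fell by 1.93 (SE 0.26) and 2.75 (SE 0.36), from 236 ± 37.6 to 61.9 ± 6.58 and from 102 ± 27.5 to 15.2 ± 3.26 CPM. Tbc1d4 and Trarg1, both of the insulin-responsive traffic of a glucose transporter, fell by 2.47 (SE 0.19) and 2.52 (SE 0.35). Relt, of the tumour necrosis factor receptor family, was at 121, 98.8 and 67.9 against 6.14, 9.40 and 9.35 CPM and fell by 3.53 (SE 0.31). The water channel gene Aqp1 fell by 0.94 (SE 0.12), the ephrin receptor gene Epha4 by 2.24 (SE 0.28) and the RNA-editing enzyme gene Adarb1 by 1.68 (SE 0.24).

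Plekhh2 was extreme in a single library. It was at 244, 105 and 62.3 CPM with 25(OH)D and 48.9, 20522 and 276 CPM with ZK191784, so that ZK191784 library 2 alone exceeded every other library many times over. The fitted difference of 5.66 ± 1.73 rests on that library and did not pass (adjusted p = 0.123, and 0.0481 without ZK191784 library 1).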
